A study of Mus musculus with 8 samples.

Results

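The genes Dnmt1, Uhrf1, Chaf1a, Chaf1b and Hells copy DNA methylation and rebuild nucleosomes behind the replication fork, and they were measured here in cells at high and low density. The members were the probe sets whose annotation gives exactly 1 gene symbol, that symbol being 1 of these 5. This gave 6 probe sets out of 12488, for 5 of the 8251 genes that had such a probe set. RNA from cells that the labels call mouse aortic endothelial cells was hybridised to 8 Affymetrix oligonucleotide arrays, 1 sample per array. The Confluent group held 4 samples of a mature monolayer that had filled the dish, and the Subconfluent group held 4 samples of cultures under 50% confluency. The number of cells per sample was the same in both groups. No treatment is named for either group, and the strain, the age of the mice, the passage and whether the cells were a line or a primary isolate are not stated in the labels. Samples of both groups are numbered 1 to 4, here called experiments, and the arrays of an experiment resembled each other. The main comparison was 4 arrays against 4, and a fit with experiments as pairs is given beside it. The labels do not name such pairs.

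When DNA is replicated, each new double helix carries methyl groups on its old strand only. UHRF1 binds this hemimethylated DNA and modified histone H3 and brings in DNMT1, the maintenance methyltransferase, which methylates the new strand. Chromatin assembly factor 1 (CAF-1), with the large subunit CHAF1A and the middle subunit CHAF1B, is a histone chaperone that deposits histones H3 and H4 on the new DNA and is recruited there by the sliding clamp PCNA. HELLS, also called LSH, is an SNF2-family remodeller that slides nucleosomes and is needed for normal methylation of repeats. All of these act mainly in S phase, the part of the cell cycle in which DNA is copied.

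Short stretches of the promoters are shown because the E2F factors, which switch on S-phase genes, are known to bind sites of the kind TTCCCGC. The table of RefSeq promoters (build GRCm38.p6) holds 250 bases before and 50 bases after each start site, and it gave 8 windows for the 5 genes. The letters TTCCCGC, or their reverse complement GCGGGAA, stood in 4 of these 8 windows, 1 each of 4 genes, and in 4.6% of all 32851 windows. The motif itself holds the dinucleotide CG, and the windows with a match held 12 to 34 CG dinucleotides, against a median of 7 over all windows. Of the 13006 windows with at least 12, which include 7 of the 8, 9.72% held the motif. Each 30-base stretch reads 5′ to 3′ on the strand of the gene, and capitals mark the match.
Uhrf1, chr17:56303278-56303307, plus strand: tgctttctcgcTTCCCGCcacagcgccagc
Chaf1a, chr17:56040358-56040387, plus strand: ggttgccgcggTTCCCGCcaaatacgagcg
Hells, chr19:38930918-38930947, plus strand: accaccgggttTTCCCGCgaaagagaagcg
Chaf1b, chr16:93883663-93883692, plus strand: tcctccgaggcGCGGGAAtgggattcccag
The match of Uhrf1 began 48 bases before the start site, that of Chaf1a 47 bases before it and that of Hells 61 bases before it. The one shown for Chaf1b began 227 bases before the start site, and a second copy lay just past the start. None of the 3 windows of Dnmt1 on chromosome 9 held this motif, and 1 held the related TTGGCGC (reverse complement GCGCCAA), past its start site, which occurred in 2.45% of all windows. The CCAAT box, or its reverse complement ATTGG, stood in 5 of the 8 windows (of Dnmt1, Uhrf1 and Chaf1a) and in 37.4% of all windows. The motifs were chosen after these windows had been read. A match shows only that the letters are there.

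The arrays had been scaled by the authors to a target signal of 500, and their scale factors ran from 3.05 to 13.3. Precision is limited by having 4 arrays per group. The cell label was checked against markers. Of 13 endothelial markers on the array 2 reached a mean signal of 200, Eng and Cd34, while Pecam1 was at 111 and Cdh5 at 13.0. Of 13 fibroblast and pericyte markers 9 reached it. Their summed signal was 57341 to 82803 on the confluent and 28273 to 43037 on the subconfluent arrays. Of 8 smooth muscle markers 4 reached the minimum. Mylk was lower in subconfluent cells (-1.84, limma adjusted p = 0.0163), Acta2 (1.14) and Tagln (1.47) were higher with experiments as pairs (limma adjusted p = 0.0172 and 0.0102) but not as 4 against 4, and Actg2 stood at 0.02, on the log2 scale. The summed signal of the smooth muscle list was 3606 to 5570 on the confluent and 2323 to 10723 on the subconfluent arrays, so the groups overlapped. Of 10 macrophage markers Cd14 alone reached the minimum (-0.70), and of 8 epithelial and mesothelial markers Upk3b (-0.85) and Cdh1 (0.30) did, Cd14 and Upk3b being lower with experiments as pairs only. The defining macrophage genes Adgre1 and Ptprc were at 27.9 and 11.2, and the epithelial gene Epcam at 9.74. The part of these markers in the results below was not tested. In bulk RNA, fewer cells of a type and less RNA per cell cannot be told apart.

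The core methylation pair was higher in subconfluent cells in every experiment, by a fold of 2.11 for Uhrf1 and 1.45 for Dnmt1, though neither passed when the 8 arrays were compared as 4 against 4. Dnmt1 (chromosome 9, 20907206 to 20959888 in GRCm38.p6) had signals of 1163.1, 2400.2, 2694.9 and 2223.0 on confluent replicates 1 to 4. On subconfluent replicates 1 to 4 its signals were 2397.2, 2840.6, 3572.4 and 3134.2. Of the subconfluent arrays 3 lay above all confluent ones, and subconfluent replicate 1 lay within their range. The means were 2120.3 ± 667 and 2986.1 ± 495 (SD, n = 4). On the log2 scale, after 50 had been added to each signal, Dnmt1 was 0.53 ± 0.25 (SE) higher, a fold of 1.45, with a limma adjusted p = 0.202. With the experiment number as a block, which compares arrays within their experiment, the same difference had an SE of 0.15 and passed (limma adjusted p = 0.0338).

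Uhrf1 (chromosome 17, 56303337 to 56323486) had signals of 529.3, 1884.8, 1544.3 and 1294.7 on the confluent arrays and 1891.0, 3338.8, 2849.2 and 2424.5 on the subconfluent ones, in the order of the replicates. The groups did not overlap, but the highest confluent value, on replicate 2, nearly met the lowest subconfluent one, on replicate 1. The means were 1313.3 ± 576 and 2625.9 ± 616 (SD, n = 4). The log2 difference was 1.07 ± 0.33 (SE), a fold of 2.11 (limma adjusted p = 0.0748), and with experiments as pairs it passed with the smallest p of the 5 genes (SE 0.17, limma adjusted p = 0.00520). Within single experiments Uhrf1 was 1.74, 0.81, 0.86 and 0.88 higher on the log2 scale, so experiments 2 to 4 gave nearly the same value. For Dnmt1 the 4 values were 1.01, 0.24, 0.40 and 0.49. A further probe set of Dnmt1 had a mean signal of 65.3, under the minimum of 200, and ran from 44.7 to 115 on the confluent and from 32.4 to 106 on the subconfluent arrays. Its means were 75.6 ± 32.1 and 54.9 ± 34.5 (SD, n = 4), and the groups overlapped.

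**Figure D1:**
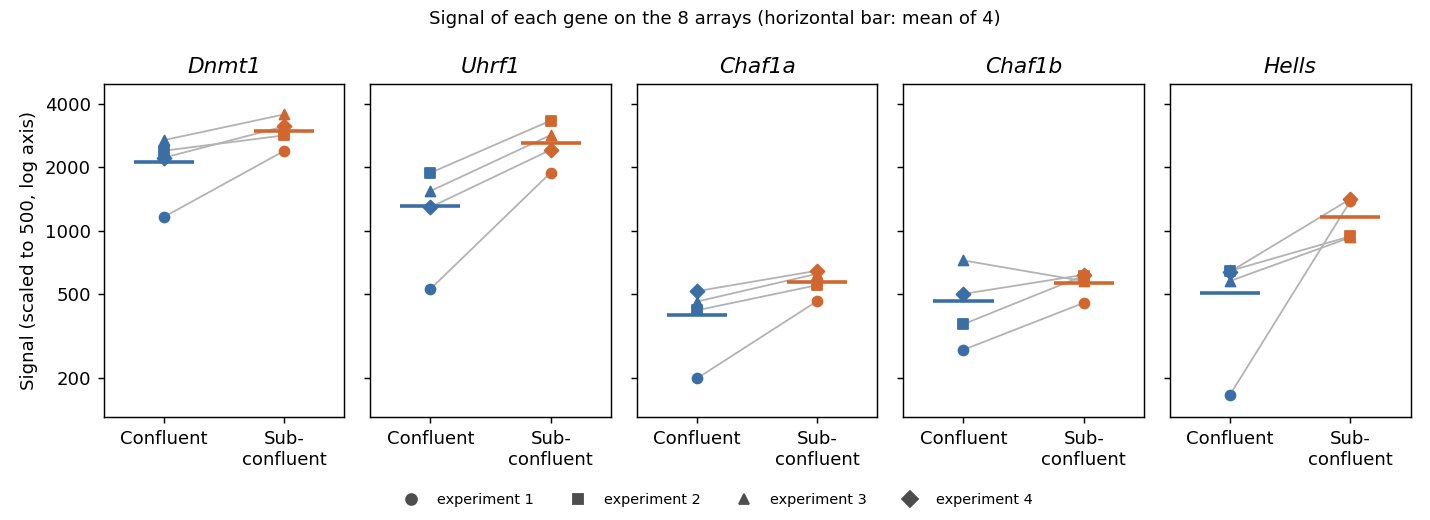
Signal of the 5 genes on the 8 arrays, on a log axis. Each symbol is 1 array, its shape is the experiment number, grey lines join arrays of 1 experiment and bars are means of 4. Confluent replicate 1 is the lowest of the 8 arrays in each panel, and the groups do not overlap for Uhrf1 and Hells.

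The subunits of CAF-1 had low to middling signals, and neither passed as 4 against 4. Chaf1a was higher in subconfluent cells in all 4 experiments, by a fold of 1.44, beside 1.45 for Dnmt1. Chaf1b was higher in 3 of the 4. Chaf1a (chromosome 17, 56040416 to 56068026) had signals of 199.1, 419.2, 461.2 and 516.8 on the confluent arrays and 464.1, 552.2, 625.4 and 646.8 on the subconfluent ones. Again 3 subconfluent arrays lay above all confluent ones and subconfluent replicate 1 did not. The means were 399 ± 139 and 572 ± 82.6 (SD, n = 4). The log2 difference of Chaf1a was 0.53 ± 0.25 (SE), a fold of 1.44 (limma adjusted p = 0.207). It passed narrowly with experiments as pairs (SE 0.16, limma adjusted p = 0.0483).

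Chaf1b (chromosome 16, 93883900 to 93906115) had signals of 272.2, 360.2, 723.4 and 501.6 on the confluent arrays and 455.0, 612.6, 576.8 and 618.3 on the subconfluent ones. Confluent replicate 3 carried the highest value of all 8 arrays, and no subconfluent array lay above it. The means were 464 ± 197 and 566 ± 76.0 (SD, n = 4). The log2 difference was 0.33 ± 0.25 (SE), a fold of 1.26, and it passed neither as 4 against 4 (limma adjusted p = 0.454) nor with experiments as pairs (limma adjusted p = 0.238). The interval of the fold, 0.859 to 1.84 at 95% confidence, includes a difference as large as that of Chaf1a. In experiments 1, 2 and 4 Chaf1b was 0.65, 0.69 and 0.28 higher on the log2 scale, and in experiment 3 it stood at -0.30.

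The remodeller gene Hells had the largest difference of the 5. On chromosome 19 (38930262 to 38970470), it had signals of 166.4, 644.9, 577.6 and 639.0 on the confluent arrays and 1383.8, 942.1, 930.3 and 1415.8 on the subconfluent ones. All subconfluent values lay above all confluent values, and confluent replicate 1 lay far under the other confluent arrays, which were close to each other. The means were 507 ± 229 and 1168.0 ± 268 (SD, n = 4). The log2 difference of Hells was 1.24 ± 0.35 (SE), a fold of 2.37, just short of the threshold as 4 against 4 (limma adjusted p = 0.0551) and past it with experiments as pairs (SE 0.32, limma adjusted p = 0.0265). By experiment the log2 differences were 2.73, 0.51, 0.64 and 1.09.

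**Figure D2:**
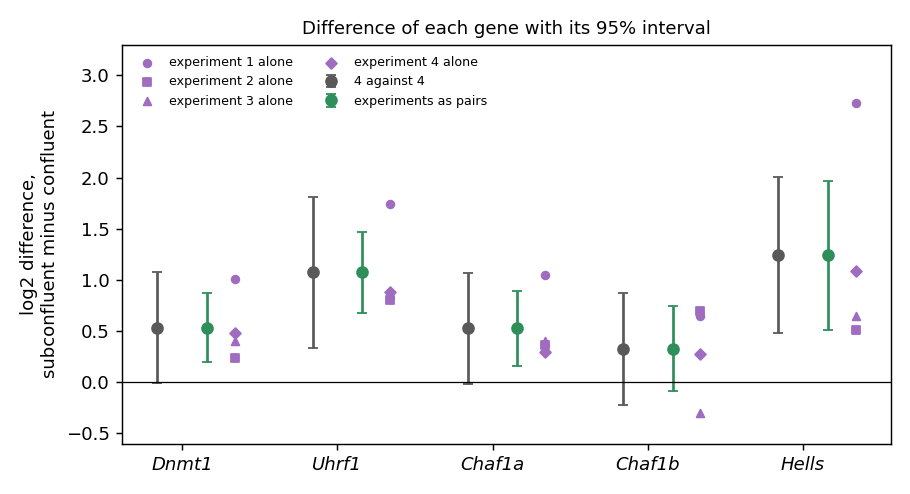
Log2 difference of each gene, subconfluent minus confluent, with 95% intervals from the fit of 4 against 4 (grey) and from the fit with experiments as pairs (green), and the value of each experiment (violet symbols). The interval of Chaf1b includes 0 in both fits, and experiment 1 gives the highest value for Dnmt1, Uhrf1, Chaf1a and Hells.

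Counted together, 0 of the 5 genes passed limma's test as 4 against 4 at an adjusted p under 0.05 in either direction, where 2.83% of the 4670 tested genes were called higher and 4.39% lower. At an unadjusted p under 0.05, 2 of the 5 were higher (Uhrf1 and Hells), against 13.5% of all genes. With experiments as pairs 4 of the 5 were called higher and 0 lower, where 10.1% of all genes were called higher and 12.1% lower. In 4 of the 5 the subconfluent signal was higher in all 4 experiments, against 20.8% of all genes. The groups did not overlap, with subconfluent above confluent, for 2 of the 5 against 8.5% of all genes. The median log2 difference of the 5 was that of Dnmt1, 0.53, and the median of all tested genes was 0.00. The 5 genes were chosen with earlier results of these data known, so these shares describe them and test nothing.

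The larger differences of Uhrf1 and Hells were set against those of the other 3 genes directly. For each of the 10 pairs of genes the log2 signal of one was subtracted from that of the other on each array, and the groups were compared by a two-sided exact permutation test, which cannot go below 0.0286 with 4 arrays against 4. Uhrf1 exceeded Dnmt1 by 0.54 (exact p = 0.0571, 0.171 adjusted over the 10 pairs), with the same sign in all 4 experiments. Hells exceeded Chaf1a by 0.72 (exact p = 0.0571, adjusted 0.171), also in all 4 experiments. Hells exceeded Chaf1b by 0.92 (exact p = 0.0857, adjusted 0.171), with that sign in 3 experiments. Between Dnmt1 and Chaf1a the difference was 0.01 ± 0.11 (SE, n = 4 per group, exact p = 0.943), and between the CAF-1 subunits Chaf1a and Chaf1b it was 0.20 ± 0.19 (SE, n = 4 per group, exact p = 0.371). No pair of genes passed after adjustment in this comparison of arrays as 4 against 4. Hells exceeded Uhrf1 by 0.17 (exact permutation p = 0.657), with that sign in 2 experiments. Within experiments the excess of Uhrf1 ran from 0.39 to 0.73 over Dnmt1, 0.45 to 0.70 over Chaf1a and 0.12 to 1.17 over Chaf1b. That of Hells ran from 0.24 to 1.72 over Dnmt1, 0.15 to 1.68 over Chaf1a and -0.18 to 2.08 over Chaf1b. An exact sign-flip permutation test of the 4 within-experiment differences cannot go below 0.125. It reached that value for Uhrf1 over Dnmt1, Chaf1a and Chaf1b, and for Hells over Dnmt1 and Chaf1a. The sign-flip test thus cannot pass the threshold and leaves these differences undecided. Over the 8 arrays the patterns of Dnmt1 and Chaf1a lay closest together among the 5. After each gene was centred on its own mean, they differed by 0.13 on the log2 scale (root mean square), against 0.65 for Chaf1b and Hells.

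Confluent replicate 1 was the lowest of the 8 arrays for all 5 genes, and it was the lowest for 22.8% of all tested genes. Subconfluent replicate 2 was the lowest for 21.2% of them. The median signal of confluent replicate 1 was 182.8, within the range of the other arrays (169.1 to 187.4). For the 5 genes confluent replicate 1 lay from 0.60 (Chaf1b) to 1.22 (Hells) under the confluent mean on the log2 scale, as deviations of -0.60 and -1.22. Markers of cycling cells lay low on the same array. Of 20 such markers on the array 19 reached a mean signal of 200. Their mean deviation was -0.92 on confluent replicate 1, 0.55 on confluent replicate 2, 0.18 and 0.20 on the remaining confluent arrays, and 0.77 to 0.91 on the subconfluent arrays. Their summed signal was 14614 to 42066 on the confluent and 46092 to 54831 on the subconfluent arrays. Of the 19, 3 rose and 0 fell as 4 against 4 (all tested genes: 2.83% and 4.39%), and 13 rose with experiments as pairs (10.1%). The part of cell cycling in the differences of the 5 genes was not tested. Without confluent replicate 1 the folds of Dnmt1, Uhrf1, Chaf1a, Chaf1b and Hells were 1.21, 1.63, 1.20, 1.09 and 1.79, against 1.45, 2.11, 1.44, 1.26 and 2.37 with all arrays. Hells then passed (limma adjusted p = 0.0461), and the others did not (0.0972 to 0.785). The calls made with experiments as pairs also depended on single experiments. Leaving out 1 experiment at a time, Uhrf1 kept its call in all 4 fits (limma adjusted p = 0.00925 to 0.0227). Hells kept it without experiment 1 (0.75, limma adjusted p = 0.0325) or 2 (0.0232) and lost it without experiment 3 (0.0508) or 4 (0.0763). Dnmt1 kept it without experiment 2 (0.0307) and lost it without experiment 1 (0.38, limma adjusted p = 0.0911), 3 (0.0931) or 4 (0.105). Chaf1a lost its call in all 4 fits (0.0572 to 0.160).

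The arrays came from 4 chip lots. Within lot A, which held replicate 1 of each group, the log2 differences of Dnmt1, Uhrf1, Chaf1a, Chaf1b and Hells were 1.01, 1.74, 1.05, 0.65 and 2.73. Within lot C, which held confluent replicate 3 and subconfluent replicates 3 and 4, they were 0.31, 0.75, 0.42, -0.26 and 0.93. Chaf1b thus had opposite signs in the 2 lots. With the lot as a block Uhrf1 (1.18, limma adjusted p = 0.0308) and Hells (1.70, 0.0271) passed, and Dnmt1 (0.61, 0.0863), Chaf1a (0.69, 0.0697) and Chaf1b (0.13, 0.777) did not. Lots B and D each held arrays of a single group, so these differences rest on the arrays of lots A and C alone. They thus include, in lot A, confluent replicate 1, the array that was lowest for all of these genes. RNA quality by the 3′ to 5′ signal of the Gapdh control overlapped between the groups, with a log2 ratio of -0.36 to -0.23 on the confluent and -0.32 to -0.26 on the subconfluent arrays.

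**Figure D3:**
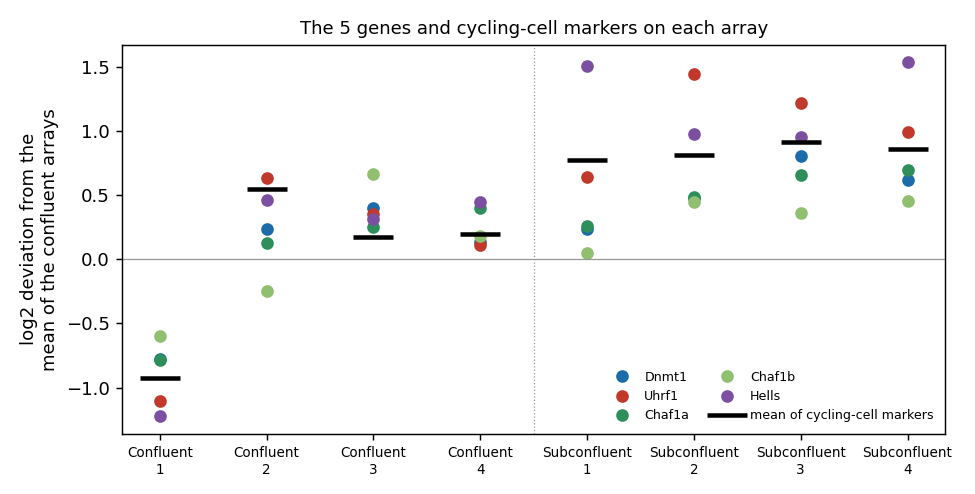
Log2 deviation from the mean of the confluent arrays for the 5 genes (dots) and the mean of 19 markers of cycling cells (black bars), on each array. All are lowest on confluent replicate 1, and among the 5 genes Hells and Uhrf1 lie highest and Chaf1b lowest on the subconfluent arrays.

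The genes whose patterns lay closest to each member over the 8 arrays were found by the same root mean square difference of centred log2 signals, among all tested genes. Closest to Hells were Rrm2 (0.19), a subunit of ribonucleotide reductase, which makes deoxynucleotides, the semaphorin gene Sema3e (0.20) and Anln (0.20), which encodes the cytokinesis protein anillin. The median gene lay 0.86 from Hells. Closest to Uhrf1 were the mitotic kinesin gene Kif20a (0.14), Tbrg4 (0.16), which encodes a mitochondrial protein, and Wdhd1 (0.16), a replisome protein that links helicase and polymerase, against a median of 0.79. For Dnmt1 they were Tcof1 (0.11), a nucleolar protein of ribosome production, Cmc2 (0.11) and the nuclear pore gene Nup85 (0.11), against 0.51. For Chaf1a they were Stmn1 (0.10), which destabilises microtubules, the RNA-binding gene Lsm4 (0.11) and the ribosome maturation gene Tsr1 (0.13), against 0.51. For Chaf1b they were Asap1 (0.11), the nuclear pore gene Nup50 (0.13) and Pold1 (0.14), the catalytic subunit of DNA polymerase delta, against 0.47. The probe sets used for Kif20a, Cmc2 and, below, Gadd45b carry a suffix that, in the array maker's naming, marks probes shared within a sequence family. Those used for Nup85 and, below, Cbx6 carry suffixes of other kinds. Second tested probe sets of Nup85 and Cbx6 stood at 0.81 and -0.76. A further tested probe set of Cmc2 had a log2 difference of -0.08, against 0.44 for the one used.

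The list of writers, readers and partners of DNA methylation had 14 further tested genes. Of these 1 rose and 1 fell as 4 against 4 (all tested genes: 2.83% and 4.39%). With experiments as pairs 4 rose and 1 fell (all tested genes: 10.1% and 12.1%), and the median log2 difference was 0.19. The 2 that passed as 4 against 4 belong to the Gadd45 family of growth arrest and DNA damage genes, which have been proposed to help remove methylation. Gadd45g rose (1.03 ± 0.23 SE, limma adjusted p = 0.0308) and Gadd45a fell (-1.50 ± 0.36 SE, limma adjusted p = 0.0332). With experiments as pairs Gadd45b (0.75), Cdca7 (0.62), whose product recruits HELLS to chromatin, and Ahcy (0.59), which clears the by-product that inhibits methyltransferases, passed as well. A second probe set of Gadd45b stood at -0.14. The de novo methyltransferase gene Dnmt3a lay under the signal minimum. Of 18 further histone chaperone and assembly genes, 0 passed as 4 against 4 (6 at an unadjusted limma p under 0.05 in either direction, where 27.2% of all tested genes were). The median of the 18 was 0.18, and 5 rose with experiments as pairs, against 10.1% of all tested genes. The 5 were Asf1b (0.73), which hands histones to CAF-1, Nasp (0.68) and Nap1l1 (0.47), carriers of histones, Hat1 (0.67), which acetylates new histone H4, and Anp32b (0.52).

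Among 20 further subunits of SNF2-type and other remodellers, the family of Hells, 0 passed as 4 against 4 (7 at an unadjusted limma p under 0.05 in either direction, against the same 27.2% of all genes). With experiments as pairs 3 rose (all tested genes: 10.1%), Chd1 (0.63), Ruvbl1 (0.53) and Ruvbl2 (0.77). Smarca2 (-0.97), an ATPase of the BAF complexes, was the 1 that fell (all tested genes: 12.1%). A second tested probe set of Ruvbl1 stood at 0.06. The median was 0.11. Of 15 heterochromatin and histone methyltransferase genes 1 rose, Ezh2 (0.92 ± 0.23 SE, limma adjusted p = 0.0413), the methyltransferase of Polycomb repressive complex 2, and 1 fell, Cbx6 (-0.96 ± 0.24 SE, limma adjusted p = 0.0401), a Polycomb chromodomain protein. Over all tested genes 2.83% rose and 4.39% fell as 4 against 4. With experiments as pairs 5 of the 15 rose (all tested genes: 10.1%), among them the nuclear envelope genes Lmnb2 (0.65) and Lbr (0.60). The Ezh2 partner gene Eed (0.57) was another, and the median of the 15 was 0.45. Of 17 genes of the clamp, its loader, the polymerases and Okazaki fragment processing, all 17 had positive differences, against 2357 of the 4670 tested genes. The median of the 17 was 0.51, close to the 0.53 of the 5 genes. Prim1, a primase subunit, was the 1 that rose as 4 against 4 (0.95 ± 0.24 SE, limma adjusted p = 0.0401), and 6 rose with experiments as pairs (all tested genes: 10.1%). Pcna, the clamp that binds DNMT1 and CAF-1, stood at 0.67 (limma adjusted p = 0.123, and 0.0535 with experiments as pairs) and is named beyond the rule for named genes.

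**Figure D4:**
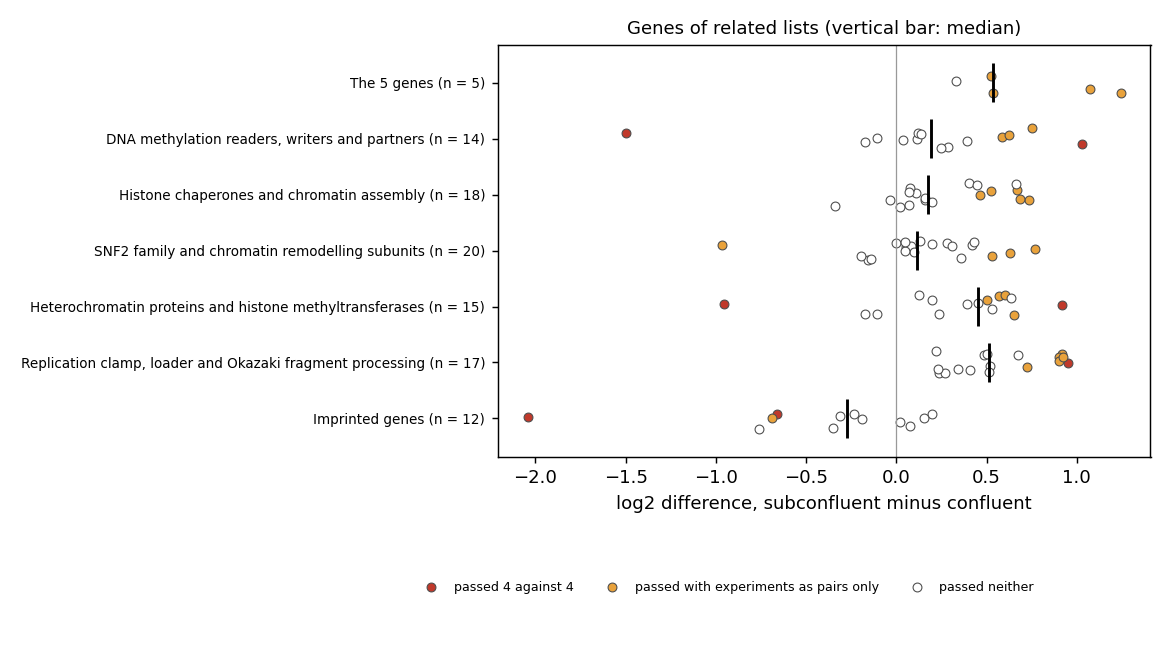
Log2 difference, subconfluent minus confluent, of the 5 genes and of the tested genes of 6 related lists without them. Each dot is 1 gene and each bar the list's median. Red dots passed as 4 against 4, orange dots passed only with experiments as pairs, and the replication list has all 17 genes above 0 while 8 of 12 imprinted genes lie below it. Of all 4670 tested genes 2357 had a difference above 0.

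Imprinted genes are expressed from 1 parental copy, some of them in certain tissues only. DNMT1 maintains the methylation that marks imprinting control regions. Expression by parental copy was not measured here. Of 38 genes on the list 30 were on the array and 12 reached the signal minimum. Of the 12, 0 rose and 2 fell as 4 against 4 (all tested genes: 2.83% and 4.39%). With experiments as pairs 3 fell (all tested genes: 12.1%), and the median of the 12 was -0.27. The proteoglycan gene Dcn fell by 2.04 on the log2 scale (SE 0.23, limma adjusted p = 0.00135), from 14707.7 to 3476.2 in mean signal. Dcn is also on the fibroblast marker list, of which 4 of 9 tested genes fell and 0 rose, with a median of -1.04. Igf2r, the receptor that clears IGF2, fell by 0.66 (SE 0.15, limma adjusted p = 0.0298). Sgce, a sarcoglycan gene, stood at -0.69 (limma adjusted p = 0.0589, and 0.0136 with experiments as pairs). Among the called genes of these lists, Dcn kept its call in all 8 fits that left out 1 array. Gadd45g, Gadd45a, Ezh2, Cbx6, Prim1 and Igf2r each lost theirs in 5 to 7 of the 8, with limma adjusted p up to 0.103, and every array other than confluent replicate 2 ended at least 1 of them. Gadd45a was -1.09 without confluent replicate 1, -2.72 within lot A and -0.77 within lot C.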

How the data were processed

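Affymetrix signal, 1 linear value per probe set, was made by the authors with Affymetrix's statistical algorithm and brought to a target of 500 per array, per the labels. The software version was not given in the sources used here. No further normalization was applied. The table held 12488 probe sets, of which 66 controls were dropped. Tests covered the 6007 whose signal averaged 200 or more over the 8 arrays, as log2(signal + 50), which shrinks folds of low genes. Names came from GEO's platform annotation, and a gene with several probe sets was represented by its brightest. The groups were compared in R 4.3.3 using limma 3.58.1 (a linear model with moderated variances that follow the mean signal, 6 residual degrees of freedom, two-sided, Benjamini-Hochberg adjustment over all tested probe sets, threshold 0.05). The fit was tested on simulated data.

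Arrays of the same experiment number had correlations of 0.486, 0.357, 0.516 and 0.348 between their deviations from the group means, and the highest between different numbers was 0.0681, so the fit with the experiment number as a replicate block (3 residual degrees of freedom) is given beside the first. The higher values, 0.486 and 0.516, belonged to experiments 1 and 3, whose arrays shared a chip lot (A and C). Confluent replicate 3 and subconfluent replicate 4 also shared lot C, with a correlation of 0.0242. The part of the lot in the likeness within experiments was not tested. The labels do not say that the samples were separate cultures, so p-values measure the spread between samples, which may be technical. Alternatives were the block, chip lot, pseudocounts of 1 and 150, a filter of 500 or none, median centring, quantile normalization, no variance trend, the scale factor as a covariate, and leaving out single arrays or pairs.

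The 5 genes and the lists were chosen with earlier results of these data known. Named genes were the 5, the genes of each list that passed or had the smallest p (up to 4), and the 3 of most similar pattern to each of the 5. Genes named from a list because they passed with the block alone were added after their values were seen. Pairs of members were compared by a test also added then. Tables and plots used pandas 2.3.3 and matplotlib 3.10.9 under Python 3.11.15.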

Additional observations from a re-analysis of the deposited data

Results flagged for a closer look

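In 86 groups of 4 signals (43 genes in both groups), single arrays stood apart from the other 3 of their group in 10. The measure was the gap to the nearest value as a share of the range on the log2 scale. Chance gives about 1 in 20 for groups picked without regard to their values. Many of the 43 genes were picked by p or by their pattern over these arrays, so the 10 cannot be set against that rate. Hells had a signal of 166.4 on confluent replicate 1, against 577.6 on the next confluent array. On the same array Cmc2 (610.3, next 1280.2), Lsm4 (1340.3, next 3139.7) and Nap1l1 (2801.2, next 3526.3) were low, and Cbx6 (2983.8, next 1719.5) and Smarca2 (1325.2, next 500.1) were high. On subconfluent replicate 1 Smarca2 was high as well (519.3, next 239.8) and Pola2 was low (930.6, next 1467.1). Prim1 was low on subconfluent replicate 2 (337.2, next 484.5), and Ruvbl1 on subconfluent replicate 4 (1800.8, next 1983.3).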

How the results depend on the processing

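The number of arrays limits these results, as does confluent replicate 1, the array that was lowest for each of the 5 genes. Chaf1a, with a mean signal under 500, had no value at a filter of 500. Uhrf1 and Hells were positive in all 24 alternatives, Chaf1a in all 23, Dnmt1 in 24 of 25 and Chaf1b in 23 of 24. The exceptions were the second probe set of Dnmt1 (-0.27, limma adjusted p = 0.685 with no filter) and Chaf1b within lot C (-0.26, 0.590). The causes of the changes below were not tested.

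With the replicate block 4 of the 5 genes were called, Dnmt1 (0.53), Uhrf1 (1.07), Chaf1a (0.53) and Hells (1.24), among 597 higher and 679 lower probe sets, against 165 and 244. The genes called higher in the methylation, chaperone, remodeller, heterochromatin and replication lists were 4, 5, 3, 5 and 6, with 1 remodeller gene lower, and it changed no other call of the 5. With chip lot as a block 2 were called, Uhrf1 (1.18) and Hells (1.70), with 368 probe sets higher. The 5 lists then had 0, 2, 2, 2 and 6 genes higher and 1 remodeller gene lower, with medians of 0.40 for chaperones, 0.20 for remodellers and -0.39 for imprinted genes. Within lot A (1 array against 1, no test) Dnmt1, Uhrf1, Chaf1a and Hells stood at 1.01, 1.74, 1.05 and 2.73, and the methylation, remodeller and replication medians at 0.36, 0.23 and 1.25. Within lot C 2 probe sets were higher and 3 lower, 0 list genes were called in either direction, and the chaperone and remodeller medians were 0.27 and 0.19.

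Hells alone was called (1 of 5) with a pseudocount of 150 (1.07, limma adjusted p = 0.0451), a filter of 500 (1.24, 0.0495) and median centring (1.29, 0.0478). Heterochromatin genes called higher were 2 with a pseudocount of 150, quantile normalization or median centring, and with the last remodeller and replication genes were 2 each. With a filter of 500 the remodeller list had 1 higher and a median of 0.22, replication had 0, and the imprinted median was -0.51. With no filter 72 probe sets were higher and 136 lower, the methylation, heterochromatin and replication lists had 0 calls, and imprinted genes had 1.

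Leaving out single arrays gave 0 to 2 of the 5 genes called, Dnmt1 from 0.28 to 0.67, Uhrf1 from 0.71 to 1.29, Chaf1a from 0.26 to 0.66, Chaf1b from 0.13 to 0.55 and Hells from 0.84 (without confluent replicate 1) to 1.40 (without confluent replicate 2), with 18 to 342 probe sets higher and 80 to 345 lower. Leaving out single pairs under the replicate block gave 1 to 3 of the 5 called, with Uhrf1 called in all 4 such fits, Dnmt1 from 0.38 to 0.63, Uhrf1 from 0.85 to 1.16 (1.14 in the fits without pair 3 or 4), Chaf1a from 0.35 to 0.60, Chaf1b from 0.21 to 0.54 and Hells from 0.75 to 1.49, with 223 to 652 probe sets higher (258 without pair 1) and 353 to 618 lower (367 and 413 without pairs 3 and 4). Over both kinds of fit, genes called higher ran from 0 to 4 in the methylation list, 0 to 7 for chaperones, 0 to 3 for remodellers and 0 to 8 for heterochromatin and for replication, and those called lower from 0 to 1 in the methylation, remodeller and heterochromatin lists and from 1 to 5 for imprinted genes. Medians ran from 0.16 to 0.30 for methylation, 0.15 to 0.38 for chaperones, 0.075 to 0.27 for remodellers, 0.31 to 0.60 for heterochromatin, 0.27 to 0.72 for replication and -0.34 to -0.25 for imprinted genes. The comparisons between pairs of the 5 genes passed neither as 4 against 4 nor by the sign-flip test within experiments, an alternative chosen after seeing the data whose smallest p is 0.125.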
